A study of Bos indicus with 11 samples.

Results

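A family of 10 lysosomal protease and protease inhibitor genes was followed in endometrial biopsies of cows, 8 cathepsins (CTSA, CTSB, CTSC, CTSD, CTSH, CTSK, CTSS and CTSZ) and 2 cystatins (CST3 and CST6). The genes were taken by their symbols from the deposited table of 24616 genes, and all 10 were found, each in 1 row. All 10 were among the 15081 genes whose mean over the cows reached 5 normalized counts, which were tested. The cows were healthy multiparous Nelore (Bos indicus), synchronized, inseminated artificially (AI) at detected estrus and biopsied on day 6 after AI in the uterine horn contralateral to the corpus luteum. They were divided afterwards, by the diagnosis on day 30, into 6 pregnant (P) and 5 non-pregnant (NP) cows. Every cow of both groups had been inseminated, and each cow gave 1 library. A biopsy mixes epithelium, stroma, vessels and, where it reaches deeper, muscle, so fewer cells of a type and less RNA per cell cannot be told apart.

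Cathepsins are proteases of the lysosome that break down proteins delivered by endocytosis and autophagy, and several are also secreted and act on the extracellular matrix. Most of them are papain-like cysteine proteases, while CTSD is an aspartic and CTSA a serine protease. Cystatins bind the active site of the cysteine cathepsins and hold them inactive. In ruminants, cathepsins and cystatins are known as components of the uterine secretions, the histotroph, that nourish the embryo before it attaches. The comparison asked whether the transcripts of these genes differed, around the arrival of the embryo in the uterus, between cows that were later pregnant and cows that were not.

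The depth was 9290949 to 13508711 reads on genes in P cows and 9783673 to 13569085 in NP cows. Among the members, CTSB had the most reads per cow (3876 to 10535) and CST6 the fewest (28 to 86). Transcript lengths were not used here, so levels are compared between cows for 1 gene and not between genes. Cows P617 and P1541 stood apart from the other P cows. The 8 smooth muscle markers matched in the table (of 10 listed, with DES, MYH11 and CNN1 among them) summed to 424700.0 normalized counts in P617 and 306819.5 in P1541, against 50282 to 115819.9 in the other 4 P cows and 25006 to 175267 in NP cows. The 9 epithelial markers matched (of 10) summed to 2356 normalized counts in P617 and 7967 in P1541, against 12299.9 to 20845 in the other P cows and 8832 to 13238 in NP cows. Epithelial and stromal markers were read in every cow, and no matched marker was at 0 in all cows. Cow P617 is pregnant in its labels, while a supplement of the study names it as non-pregnant. Values are therefore also given without P617 and P1541.

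None of the 10 genes passed the threshold of 0.1 on the adjusted p-value in limma, the linear model with shared variance that was fitted to log2(normalized count + 1) over all genes tested. With limma 0 of the 15081 genes passed it (0% of the genes tested), and edgeR and limma-voom also called 0. DESeq2 on the recovered reads called 201 genes (1.33%), 0 of them members, and had an unadjusted p-value under 0.05 for CTSH alone of the members, against 9.75% of all genes. An unadjusted p-value under 0.05 was found in limma for 1182 of all genes, 7.84% of those tested, and for 1 of the 10 members, CTSH. Of all genes tested, 5.49% were NP-higher and 2.35% P-higher at this threshold, and CTSH was higher in NP cows. Higher mean log2 values in NP cows were found for 7 members and in P cows for 3, where 50.2% of all genes tested were higher in NP cows, with a median log2 fold change (NP over P) of 0.13 over the 10 members and of 0.0018 over all genes tested. The groups overlapped for each of the 10 members, and did not overlap for 1.09% of all genes tested (0.855% with NP cows higher). Without P617 and P1541 the unadjusted p-value was under 0.05 for 3 members, CTSB, CTSH and CTSK, each higher in NP cows, where 7.14% of the 15020 genes then tested were NP-higher and 3.97% P-higher at this threshold, 11.1% in all. In that fit 9 members were higher in NP cows, against 46.3% of the genes tested, and 0 of the 17 genes called (0.113%) were members. Log2 fold changes are given as NP over P, each with its standard error (SE) and its adjusted p-value from limma.

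**Figure D1:**
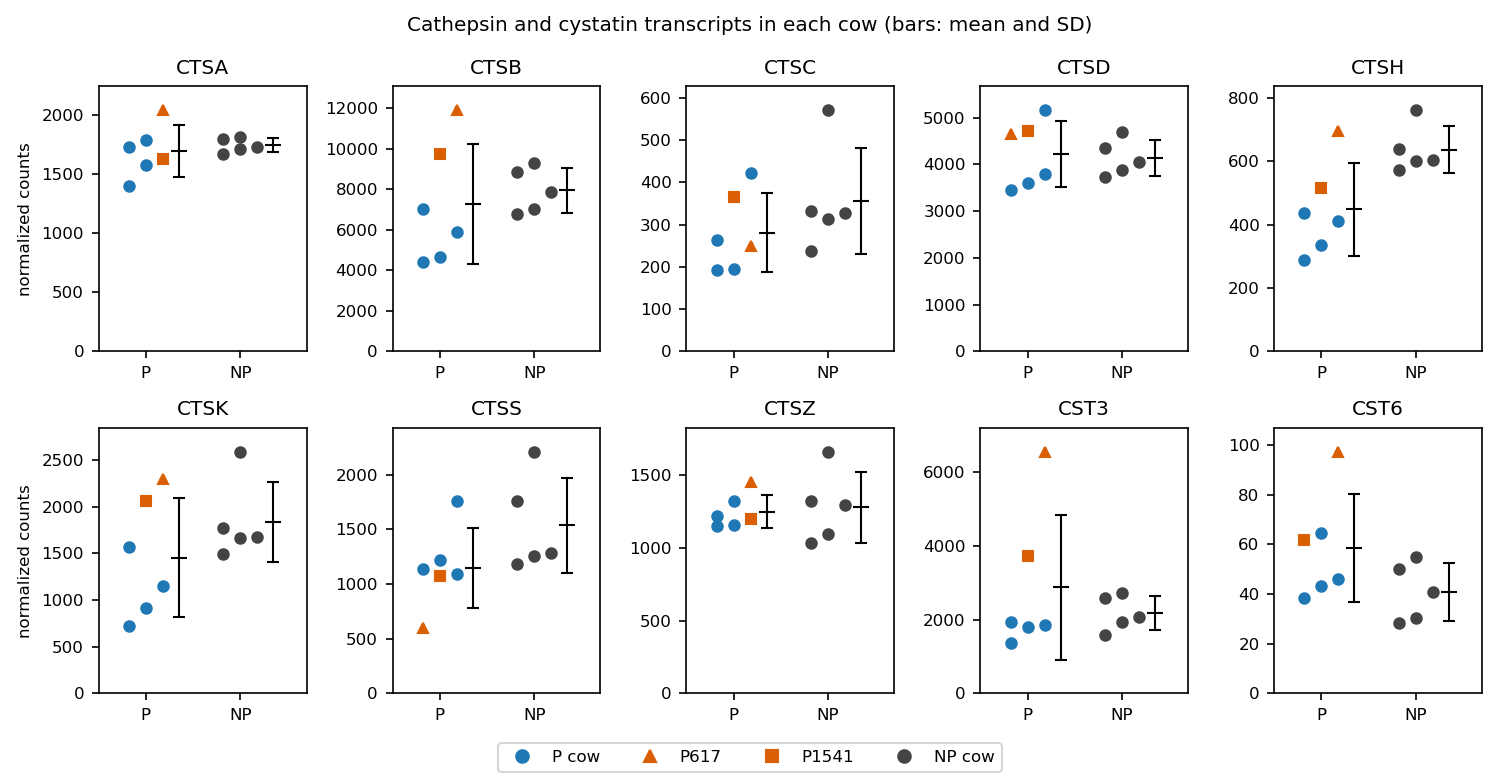
Normalized counts of the 10 genes in each cow, P cows on the left and NP cows on the right of each panel, with the mean and SD of each group as bars and cows P617 (triangle) and P1541 (square) marked. For CTSH, 5 of the 6 P cows lie at or below 517 normalized counts and every NP cow at or above 572, with P617 at 697.

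CTSH, a cathepsin that acts mainly as an aminopeptidase, was the member with the smallest p-value. CTSH (ENSBTAG00000010992) had 697 normalized counts in cow P617, 413 in P904, 517 in P1541, 335 in P1631, 437 in P1753 and 289.7 in P2396. In NP cows it had 602 in NP238, 605 in NP638, 639 in NP856, 572 in NP2541 and 761 in NP2810. Thus 5 of 6 P cows lay below every NP cow, and P617 lay above 4 of 5. P cows averaged 448 ± 146 (SD, n = 6) and NP cows 636 ± 74.1 (SD, n = 5), and the log2 fold change was 0.56 ± 0.20 (SE, 1.47-fold; limma, adjusted p = 0.496). In a two-sided exact permutation test over the 462 splits of the 11 cows into 6 and 5, the difference of the mean log2 values had a p-value of 0.0303, where the smallest possible is 0.00216. Without P617 and P1541 the groups did not overlap, as for 3.67% of the genes then tested (2.49% with NP cows higher), with 369 ± 68.3 normalized counts (SD, n = 4) in the P cows left, a log2 fold change of 0.80 ± 0.14 (SE, limma adjusted p = 0.124).

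CTSK is a strong collagenase, best known from the osteoclasts that resorb bone, and is also made by fibroblasts. CTSK (ENSBTAG00000021035) had 2294 normalized counts in P617, 1572 in P904, 2064 in P1541, 719 in P1631, 1149 in P1753 and 915 in P2396. It had 1770.0 in NP238, 1679 in NP638, 1659 in NP856, 1495 in NP2541 and 2582 in NP2810. P1631, P1753 and P2396 lay below every NP cow, and P617 and P1541 lay above 4 of the 5 NP cows. The means of 1452 ± 635 (SD, n = 6) and 1837 ± 428 (SD, n = 5) differed by a log2 fold change of 0.43 ± 0.29 (SE, limma adjusted p = 0.774), within the spread among cows. Without P617 and P1541 the log2 fold change was 0.79 ± 0.23 (SE, 1.73-fold, limma adjusted p = 0.227), with P904 as the single P cow inside the range of the NP cows.

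CTSB, the cathepsin with both endopeptidase and carboxypeptidase activity, had a similar order of cows. CTSB (ENSBTAG00000012442) had 11901 normalized counts in P617, 5871 in P904, 9741 in P1541, 4426 in P1631, 7011 in P1753 and 4665 in P2396, against 7013 in NP238, 8857 in NP638, 7859 in NP856, 6762 in NP2541 and 9296 in NP2810. The 2 highest values of all 11 cows were those of P617 and P1541. CTSB had a log2 fold change of 0.22 ± 0.26 (SE, limma adjusted p = 0.867) over all cows. It was 0.55 ± 0.16 (SE, limma adjusted p = 0.245) without P617 and P1541, when P1753 was the single P cow above the lowest NP cow.

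**Figure D2:**
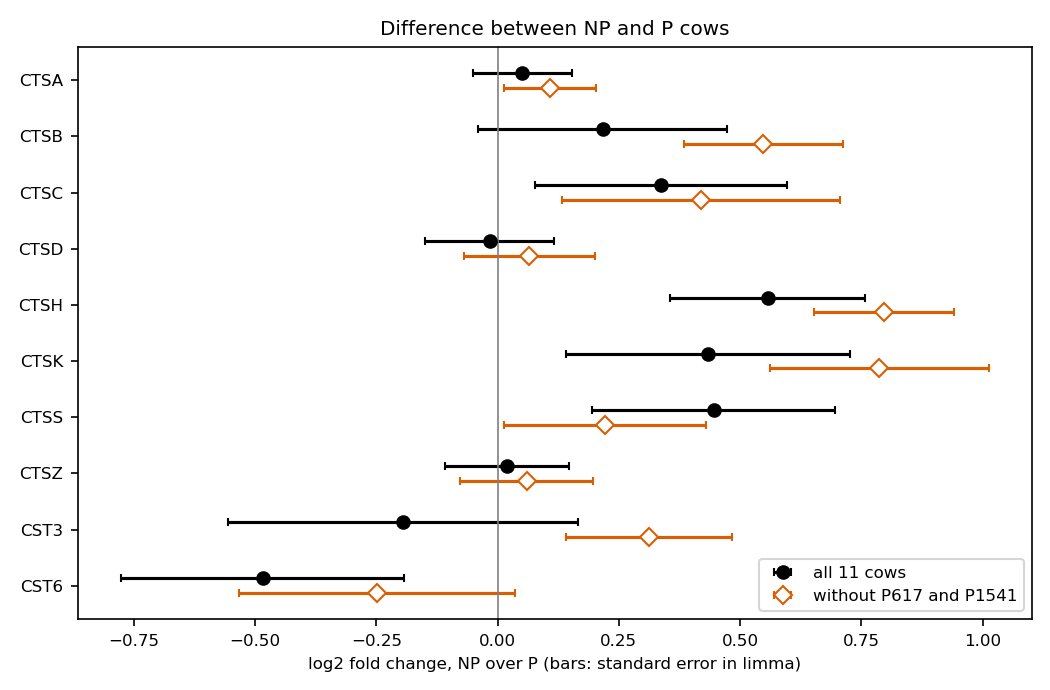
Log2 fold change (NP over P) for the 10 genes with the standard error in limma as bars, with all 11 cows (filled circles) and without P617 and P1541 (open diamonds). CTSH was 0.56 and 0.80, CTSK 0.43 and 0.79, CTSB 0.22 and 0.55, and CST3 -0.19 and 0.31 in these fits.

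Over the 11 cows, the stromal and, in the opposite direction, the epithelial markers moved with these 3 cathepsins. All 10 markers of the list (with COL1A1, COL3A1, DCN and PDGFRA among them) were matched, and the list summed to 127664 to 207908 normalized counts in the 4 other P cows, 305503 in P617, 373466 in P1541 and 262998 to 358208 in NP cows. The 4 other P cows were therefore lower in stromal markers than every NP cow, and P617 and P1541 were not. All 10 stromal markers were higher in NP cows, 2 of them with unadjusted limma p-values under 0.05, and 9 of 10 without P617 and P1541. At this threshold 5.49% of all genes tested were NP-higher, and 7.14% without these cows. Over the 11 cows, Pearson's r between the log2 value and the mean log2 value of the stromal markers was 0.92 for CTSK (Spearman's rho 0.82), 0.86 for CTSH (rho 0.67) and 0.80 for CTSB (rho 0.80). Without P1631 and P2396, the cows farthest from the median of the stromal markers, r was 0.81 for CTSK, 0.67 for CTSH and 0.53 for CTSB. Within the 6 P cows r was 0.95 for CTSK, 0.79 for CTSH and 0.85 for CTSB. With the epithelial markers r over the 11 cows was -0.82 for CTSB, -0.67 for CTSK and -0.58 for CTSH, and within the P cows it was -0.91, -0.86 and -0.89. Within the NP cows it was -0.06 for CTSB, 0.60 for CTSK and 0.58 for CTSH, so CTSK and CTSH turned direction there. The values share the library and its scaling, and these correlations are descriptions. With the stromal score as a covariate in limma, an alternative chosen after seeing the data, the log2 fold change was 0.21 for CTSH, -0.18 for CTSK and -0.25 for CTSB, so that the last pair turned direction. In that fit 2 members, CST3 and CST6, had an unadjusted p-value under 0.05, against 30.6% of all genes. With the epithelial score, chosen in the same way, CTSH was 0.58 with an adjusted p-value of 0.0953, in a fit that called 1.21% of all genes. There CTSH and CTSK had an unadjusted p-value under 0.05, against 13.7% of all genes.

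**Figure D3:**
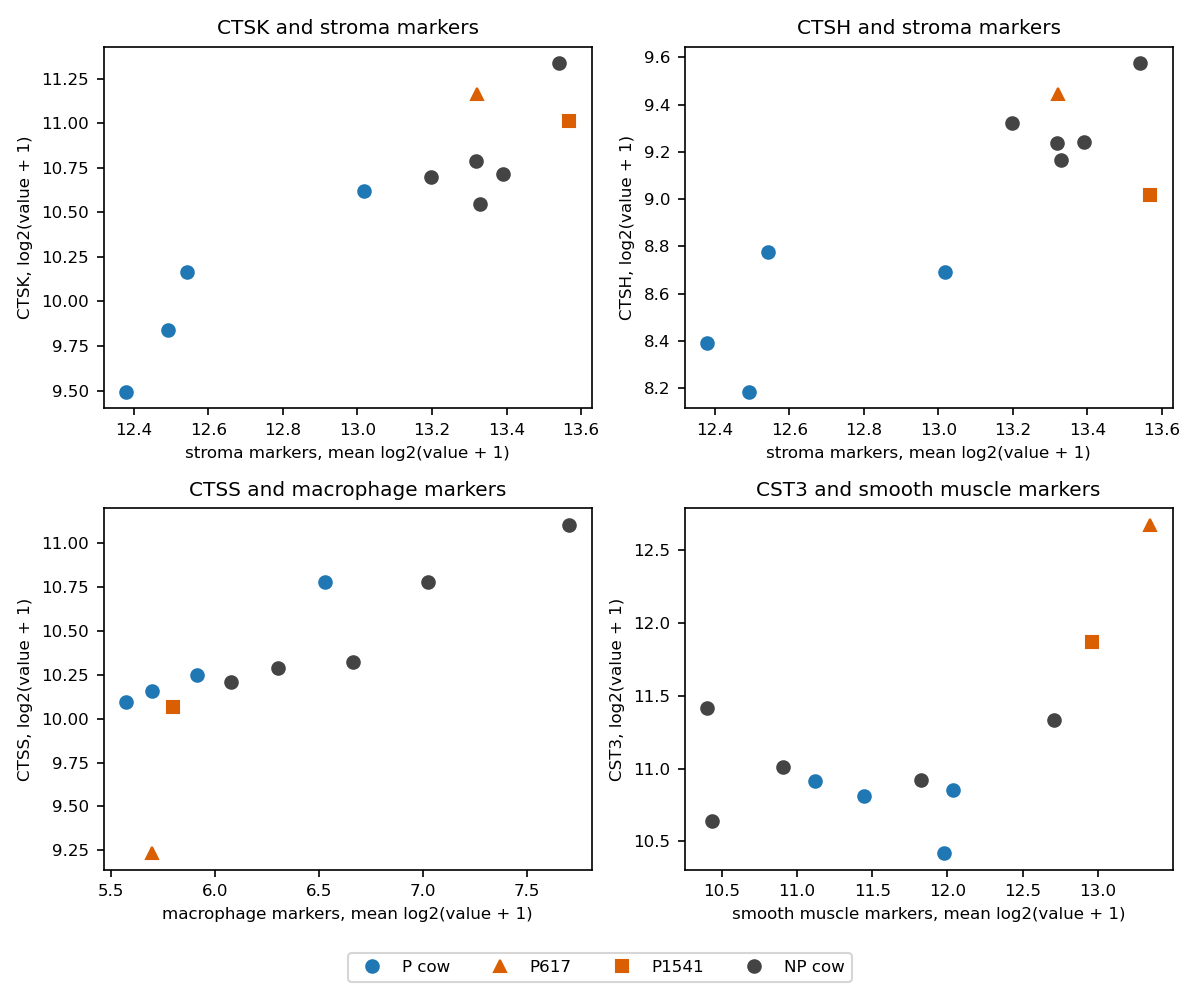
Log2(normalized count + 1) of CTSK and CTSH against the mean of the stromal markers, of CTSS against the mean of the macrophage markers and of CST3 against the mean of the smooth muscle markers, 1 point per cow. CTSK follows the stromal markers over the 11 cows (r = 0.92), and the highest CST3 values belong to P617 and P1541, the cows with the most smooth muscle marker counts.

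CTSS cleaves the invariant chain CD74 in antigen-presenting cells and remains active at neutral pH. CTSS (ENSBTAG00000017135) had 601 normalized counts in P617, 1755 in P904, 1071 in P1541, 1093 in P1631, 1141 in P1753 and 1218 in P2396, and 1279 in NP238, 1252 in NP638, 1756 in NP856, 1185 in NP2541 and 2205 in NP2810. P617 was the lowest cow, P904 reached the level of NP856, and the other 4 P cows lay below 4 of the 5 NP cows. CTSS had a log2 fold change of 0.45 ± 0.25 (SE, 1.36-fold, limma adjusted p = 0.739), and when 1 cow was left out it ran from 0.27, without P617, to 0.58 (unadjusted p = 0.0298 and adjusted p = 0.408 in limma), without P904. It was 0.22 ± 0.21 (SE, limma adjusted p = 0.772) without P617 and P1541, and 0.13 with the smooth muscle score as a covariate. Its target CD74 averaged 4261 ± 841 normalized counts in P cows (SD, n = 6) and 6331 ± 1492 in NP cows (SD, n = 5). The log2 fold change of CD74 was 0.56 ± 0.18 (SE, limma adjusted p = 0.434).

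CTSC, also called dipeptidyl peptidase I, activates the serine proteases of leukocyte granules. CTSC (ENSBTAG00000011100) had 249.7 normalized counts in P617, 422 in P904, 365 in P1541, 193 in P1631, 264 in P1753 and 195 in P2396. It had 237 in NP238, 312 in NP638, 331 in NP856, 328 in NP2541 and 571 in NP2810. NP2810 lay far above the other NP cows, which were within the range of the P cows. The log2 fold change of 0.34 ± 0.26 (SE, limma adjusted p = 0.799) was 0.15 without NP2810.

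Macrophage markers moved with both of these genes, as did other marker lists. All 10 markers of the list (with CD14, CSF1R, C1QA and C1QB among them) were read and were higher in NP cows, 7 of them with unadjusted limma p-values under 0.05 and 3 without P617 and P1541. Of all genes tested, 5.49% were NP-higher at this threshold, and 7.14% without these cows. The list summed to 603 to 1258 normalized counts in P cows, with P904 highest, and to 916 to 2686 in NP cows, with NP2810 highest. Pearson's r with the mean log2 value of these markers over the 11 cows was 0.82 for CTSS (Spearman's rho 0.91) and 0.70 for CTSC (rho 0.59). It was 0.63 for CTSS and 0.41 for CTSC without NP2810 and NP856, the cows farthest from the median of the markers. CTSH, CTSK and CTSB had an r of 0.56, 0.54 and 0.23 with the macrophage markers over the 11 cows. Without P617 and P1541 these were 0.77, 0.88 and 0.69, against 0.92 for CTSS and 0.79 for CTSC. With the macrophage score as a covariate in limma the log2 fold change turned to -0.17 for CTSS and -0.21 for CTSC, was 0.44 for CTSH and 0.06 for CTSK, and 0 members had an unadjusted p-value under 0.05, against 2.86% of all genes in that fit. The 7 endothelial markers were also all higher in NP cows, 6 of them with an unadjusted p-value under 0.05 (5 without P617 and P1541). Their mean log2 value had an r of 0.83 with CTSS and of 0.68 with CTSC (rho 0.66). The 7 leukocyte markers matched of 8 were higher in NP cows as well, 1 with such a p-value (0 without P617 and P1541), with an r of 0.77 for CTSS. With the smooth muscle markers CTSS had an r of -0.79 (rho -0.82), and with the stromal markers CTSC had an r of 0.67 (rho 0.63).

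The 3 other cathepsins, CTSD, CTSA and CTSZ, showed small differences between the groups. CTSD, the main aspartic protease of the lysosome (ENSBTAG00000007622), had a lowest, median and highest value of 3448, 4223 and 5161 normalized counts in P cows and of 3736, 4049 and 4699 in NP cows. For CTSD the log2 fold change was -0.02 ± 0.13 (SE, limma adjusted p = 0.982). CTSA, a carboxypeptidase that also protects the lysosomal enzymes GLB1 and NEU1 in a complex (ENSBTAG00000027337), had 1399, 1681 and 2044 in P cows and 1674, 1735 and 1815 in NP cows, and the log2 fold change was 0.05 ± 0.10 (SE, limma adjusted p = 0.922). CTSZ, a carboxypeptidase also called cathepsin X (ENSBTAG00000018784), had 1153, 1210.4 and 1452 in P cows and 1032, 1294 and 1661 in NP cows, and the log2 fold change was 0.02 ± 0.13 (SE, limma adjusted p = 0.978). These 3 genes varied least between cows. The highest cow had 1.46 times the lowest for CTSA, 1.497 times for CTSD and 1.61 times for CTSZ, against 2.63 times (CTSH) to 4.78 times (CST3) for the other members.

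CST3 encodes cystatin C, the widespread secreted inhibitor of cysteine cathepsins. CST3 (ENSBTAG00000000598) had 6538 normalized counts in P617, 1932 in P904, 3735 in P1541, 1801 in P1631, 1849 in P1753 and 1369 in P2396. In NP cows it had 1593 in NP238, 2578 in NP638, 2061 in NP856, 1935 in NP2541 and 2731 in NP2810. P617 and P1541 were the highest of all cows, and the other 4 P cows were lower than 4 of the 5 NP cows. The mean was therefore higher in P cows, at 2871 ± 1976 (SD, n = 6) against 2179.5 ± 469 (SD, n = 5), and the log2 fold change was -0.19 ± 0.36 (SE, limma adjusted p = 0.915). Without P617 and P1541 the log2 fold change was 0.31 ± 0.17 (SE, limma adjusted p = 0.556), in the opposite direction. With the stromal score as a covariate it was -0.85 with an adjusted p-value of 0.0847 in limma, in a fit that called 17.3% of all genes tested, so the direction of CST3 depended on the cows and the covariate used. Over the 11 cows, r between CST3 and the smooth muscle markers was 0.62 (rho 0.37), and over the 9 cows without P617 and P1541 it was -0.03. With the epithelial markers r was -0.86 (rho -0.74), and -0.38 over the 9 cows. With the stromal markers r was 0.56 (rho 0.77), and 0.65 over the 9 cows. The part of muscle or epithelium in the CST3 values was not tested beyond the fits with a score as covariate, which gave 0.20 with the smooth muscle score and -0.15 with the epithelial score.

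CST6 encodes cystatin E/M, an inhibitor of legumain and of cathepsins L and V. CST6 (ENSBTAG00000014718) had a lowest, median and highest value of 38.5, 54.0 and 97.1 normalized counts in P cows, with P617 highest. It had 28.3 in NP238, 30.4 in NP638, 54.8 in NP856, 40.8 in NP2541 and 49.9 in NP2810. P cows averaged 58.6 ± 21.6 (SD, n = 6) and NP cows 40.9 ± 11.7 (SD, n = 5), 1.399-fold higher in P cows on the fitted scale. CST6 had a log2 fold change of -0.48 ± 0.29 (SE, limma adjusted p = 0.760) within the spread among cows. CST6 was the only member that was higher in P cows both with all cows and without P617 and P1541 (log2 fold change -0.25 ± 0.28, SE).

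Because cystatins act by binding the proteases, the normalized count of CST3 was also set against that of each of 5 cysteine cathepsins within a cow, as a description that was not planned beforehand. A ratio of transcripts holds the unknown lengths of both genes and is read between cows only. CST3 per CTSH was 9.38 in P617, 4.68 in P904, 7.23 in P1541, 5.38 in P1631, 4.23 in P1753 and 4.73 in P2396. It was 2.65 in NP238, 4.26 in NP638, 3.23 in NP856, 3.38 in NP2541 and 3.59 in NP2810. Thus 5 of the 6 P cows lay above every NP cow, and P1753 lay between NP638 and the other NP cows. For CTSB and for CTSK, 4 of 6 P cows lay above every NP cow, for CTSC 3 and for CTSS 2. P617 and P1541 were among them in every ratio. Of the other P cows, P904 and P1631 lay above every NP cow for CTSB, P1631 and P1753 for CTSK and P1631 for CTSC. For CTSS the other P cows reached at most 1.65, against at most 2.06 in NP cows. The median of CST3 per CTSK was 1.71 in P cows and 1.24 in NP cows, and that of CST3 per CTSB was 0.356 and 0.286. P617 was the highest cow in each of the 5 ratios. Each ratio holds the values of its cathepsin, and the CTSH values by themselves had 5 of 6 P cows below every NP cow. How often ratios of other genes part the cows in this way was not examined.

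**Figure D4:**
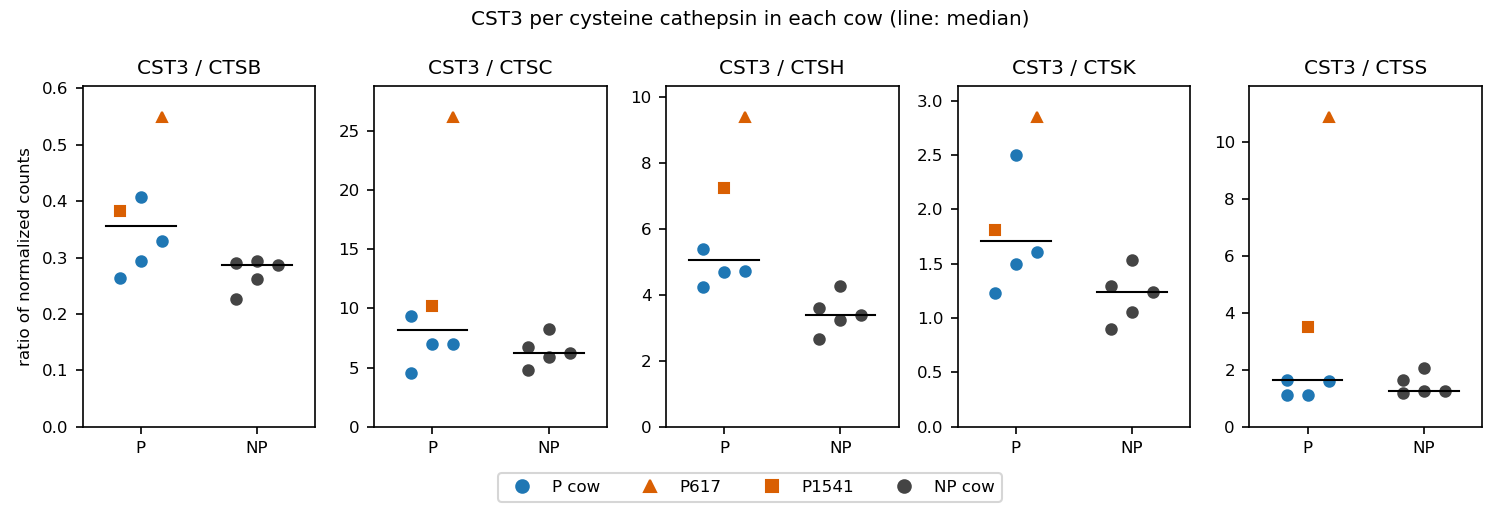
Normalized counts of CST3 divided by those of CTSB, CTSC, CTSH, CTSK and CTSS in each cow, with the median of each group as a line. For CTSH, 5 of 6 P cows lie above the highest NP cow, at 4.26, and P617 is the highest cow in every panel, up to 26.2 for CTSC.

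CTSB, CTSH and CTSK varied together over the cows, while most pairs of members did so less, with a median Pearson's r of 0.42. Of the 45 pairs, 4 had a Pearson's r over 0.8 on the log2 scale over the 11 cows. These were CTSB with CTSK (0.89), CTSH with CTSK (0.88), CTSB with CTSH (0.86) and CTSB with CST3 (0.84). CTSS had an r below 0 with 6 of the 9 other members, as low as -0.52 with CST3, and with 1 of them, CTSD, when P617 and P1541 were left out. In those 9 cows CTSS and CTSC had an r of 0.85, and the 3 pairs among CTSB, CTSH and CTSK 0.88 to 0.93. CST3 with CST6 had 0.71 over 11 cows and 0.15 over the 9. All these values come from the same libraries and describe these cows only.

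**Figure D5:**
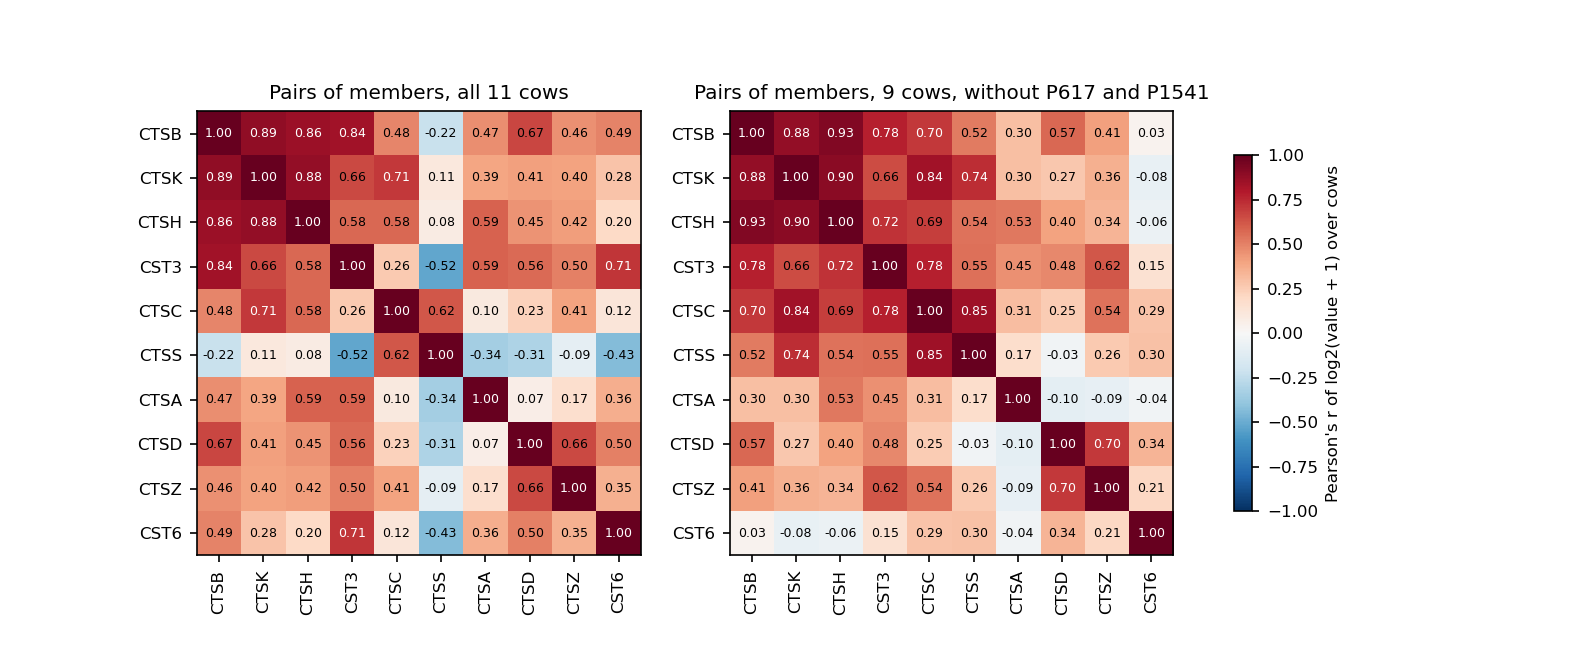
Pearson's r between the log2 values of each pair of the 10 genes, over all 11 cows (left) and over the 9 cows without P617 and P1541 (right), coloured from -1 (blue) to 1 (red). CTSB, CTSK and CTSH form a red block in both panels, and the blue row of CTSS on the left is largely absent on the right.

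The genes whose log2 values were most like those of 4 members were sought among the 12241 genes whose mean reached 50 normalized counts. For CTSB they were LOXL1 (r = 0.97), MMP19 (0.96) and COL6A1 (0.96), which encode a collagen cross-linking oxidase, a matrix metalloprotease and a collagen chain. For CTSK they were LOXL2 (0.97), another oxidase of the same family, SAV1 (0.97) and PLSCR4 (0.97). For CTSS they were ATP1B3 (0.94), the gene ENSBTAG00000019537, whose symbol is written as a date in the table (0.94), and PTPN5 (0.94). For CST6 they were MRTO4 (0.94), C19H17orf70 (0.93) and DDX56 (0.90). Spearman's rho for these 12 genes was 0.82 (ATP1B3) to 0.99 (LOXL1). When the 2 cows farthest from the member's own median were left out, r was 0.91 to 0.98 for the genes of CTSB and CTSK, and 0.76 to 0.85 for those of CTSS and CST6. These genes were picked for the highest r among 12241 over few cows, and the cows left are among those used to pick them. High values are therefore partly due to the choice, and the r that chance alone would give was not tested.

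Of 29 other cathepsins, cystatins and related genes listed, 18 were matched, in 19 rows, and 13 rows were tested. Of these, 8 had their higher mean log2 value in NP cows and 5 in P cows, with a median log2 fold change of 0.05. In each direction limma gave 1 an unadjusted p-value under 0.05, where 5.49% of all genes tested were NP-higher and 2.35% P-higher. CTSL2, which the table names as a cathepsin of the L family, had 2164, 7882, 3120.5, 5814, 6326 and 4238 normalized counts in P617, P904, P1541, P1631, P1753 and P2396, and 11793, 5845, 6823, 6714 and 7484 in NP238, NP638, NP856, NP2541 and NP2810. P617 and P1541, the highest cows for CTSB, were here the lowest. The log2 fold change was 0.74 ± 0.32 (SE, 1.67-fold, limma adjusted p = 0.608), and it was 0.34 ± 0.23 (SE, limma adjusted p = 0.659) without P617 and P1541. The count is uncertain if reads were split with the close relative CTSL1, which had at most 34.1 normalized counts. For CTSF, a papain-like cathepsin with a cystatin-like propeptide, P cows averaged 2029.7 ± 476 normalized counts (SD, n = 6) and NP cows 2454 ± 337 (SD, n = 5), and the log2 fold change was 0.29 ± 0.16 (SE, limma adjusted p = 0.730). KNG1, which encodes the kininogen of blood plasma with its cystatin domains, reached no more than 3 reads in an NP cow, and had 249 normalized counts in P617 and 0 to 13.7 in the other P cows. Against a floor of 3 counts, the arithmetic mean of the P cows was at least 16.0-fold higher, and at least 2.67-fold without P617. The first of these folds rests mainly on P617 and is not the fold that was tested. The log2 fold change of KNG1 over all cows was -2.59 ± 1.12 (SE, 6.01-fold higher in P cows, limma adjusted p = 0.604).

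Most of the other matched genes of the family had values that overlapped widely. AHSG, HRG and FETUB, plasma proteins with cystatin domains, and CST9L were read mainly in P617 or P1541. LGMN, the asparaginyl protease legumain that processes several cathepsins, ranged from 903 to 1561 normalized counts over the 11 cows. CTSW, known from cytotoxic lymphocytes, ranged from 54.2 to 174, with P617 lowest and NP2810 highest, and CTSO from 62.1 to 114. CSTB, the intracellular inhibitor stefin B, is given in 2 rows, the larger from 1528 (P617) to 3460 (NP238) and the smaller from 6.13 to 147, and the counting may have split reads between them. CSTA ranged from 5.06 to 62.9, and CST7, the leukocyte cystatin F, from 11.1 to 38.6. CTSG, CST8, CST11 and CSTL1 had 0 reads in every cow, which allows up to 3 reads per library.

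Among 59 other lysosomal genes, 57 were tested, of which 36 had their higher mean log2 value in NP cows and 21 in P cows. The median log2 fold change was 0.12, against 0.0018 over all genes tested, of which 50.2% were higher in NP cows. For SCPEP1, a serine carboxypeptidase related to CTSA, P cows averaged 767 ± 165 normalized counts (SD, n = 6) and NP cows 1041 ± 210.1 (SD, n = 5), and the log2 fold change was 0.45 ± 0.17 (SE, limma unadjusted p = 0.0217 and adjusted p = 0.514). Without P617 and P1541 it was 0.61 ± 0.15 (SE, limma adjusted p = 0.180). SMPD1, the acid sphingomyelinase, averaged 551 ± 96.4 in P cows (SD, n = 6) and 666 ± 54.1 in NP cows (SD, n = 5), and the log2 fold change was 0.29 ± 0.13 (SE, limma adjusted p = 0.648), and 0.19 without P617 and P1541.

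Substrates and partners of these proteases were read from a list of 14 genes, of which 10 were tested. All 10 had their higher mean log2 value in NP cows (9 without P617 and P1541), against 50.2% of all genes tested, with a median log2 fold change of 0.66. CD74, TGFB1 and FN1, 3 of the 10, had unadjusted limma p-values under 0.05, where 5.49% of all genes tested were NP-higher. TGFB1, a growth factor stored in the matrix, had 132 in P617, 211 in P904, 159 in P1541, 81.1 in P1631, 131 in P1753 and 93.6 in P2396, as normalized counts, and 157 to 273 in NP cows. The log2 fold change of TGFB1 was 0.67 ± 0.25 (SE, limma adjusted p = 0.514), with P904 and P1541 inside the range of the NP cows. FN1, the matrix protein fibronectin, had 3364 to 6439 normalized counts in P cows, with P1541 highest, and 5392 to 7656 in NP cows, and its log2 fold change was 0.37 ± 0.17 (SE, limma adjusted p = 0.634). COL1A1, the main collagen chain that CTSK digests, had 63342 in P617, 93377 in P1541, 20567 to 28827 in the other 4 P cows and 37759.9 to 57989 in NP cows, as normalized counts. The COL1A1 values of the other 4 P cows thus lay below those of every NP cow, and those of P617 and P1541 above. COL1A1 and COL1A2 are also in the list of stromal markers, and ACP5 is also in the list of lysosomal genes.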

How the data were processed

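RNA-Seq was analysed in endometrial biopsies of 6 P and 5 NP cows. The deposited values are 1 table of gene-level signal, namely normalized counts. As far as the methods and labels state, the authors cleaned the reads (Seqyclean), aligned them to masked UMD3.1 in the local mode of Bowtie2 2.1.0, counted reads per gene with HTSeq 0.5.4p2 and divided them by a size factor per cow with DESeq2. The annotation and the use of strand in counting are not given in the sources used here, so overlapping genes and close copies are uncertain. Reads were recovered by dividing each cow's values by their smallest step, and 100% came out whole within a relative tolerance of 0.001. A cow had between 9290949 and 13569085 such reads, so a gene at a mean of 5 rests on a few reads. No 2 cows held the same values.

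Groups came from the labels, and cow P617 was kept as P. The main test was limma-trend (limma 3.58.1, R 4.3.3), fitted to the log2(value + 1) of all genes with a mean of at least 5, with Benjamini-Hochberg adjustment at 0.1. Fold changes are on that scale and understate those of low genes. The recovered reads were tested with edgeR 4.0.16, DESeq2 1.42.0 and limma-voom as alternatives. Marker scores are means of log2(value + 1) over a list's tested genes. The members and the lists of genes were chosen with earlier results of these data known. All members are named. Other cathepsins and cystatins are given by level, with statistics for the 3 with the smallest p-values, as for lysosomal genes, and substrates where a result turns on them. The values of 1 lysosomal gene that this rule names are not reported here. For CTSK, CTSS, CTSB and CST6 the 3 genes with the highest r are named. Other alternatives were pseudocounts, filters, TMM scaling, marker scores as covariates and leaving out cows. Each test was also run on simulated counts. There the share of false calls was above the threshold of 0.1 for DESeq2 and below it for the other tests. Coordinates are not given, because the reference table used is of another assembly, and no sequences were analysed here.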

Additional observations from a re-analysis of the deposited data

Results flagged for a closer look

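In 30 groups of values (10 genes and 5 ratios in P and in NP cows), 4 values lay farther from their group than Dixon's 95% limit, where chance marks about 1 in 20 groups. They came from 2 cows, and both values of P617 share its CST3 count. Cow NP2810 had 571 normalized counts of CTSC, with the other NP cows at 237 to 331, and 2582 normalized counts of CTSK, with the other NP cows at 1495 to 1770.0. The same cow had the highest sum of macrophage markers of all cows, at 2686 normalized counts, and their part in these values was not tested. Cow P617 had a ratio of CST3 to CTSC of 26.2, with the other P cows at 4.58 to 10.2, and a ratio of CST3 to CTSS of 10.9, with the other P cows at 1.101 to 3.49. This cow had both the highest CST3 and the lowest CTSS of all 11 cows.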

How the results depend on the processing

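No paired analysis was possible because the groups share no replicate numbers. The 10 log2 fold changes were computed under 25 alternatives, 250 values in all, of which 23 turned direction. CTSH (0.21 to 0.80) and CST6 (-0.75 to -0.25) kept their direction throughout, and CTSH had an unadjusted p-value under 0.05 in 23 of 25 alternatives. The exceptions were the limma fits with the macrophage score (unadjusted p = 0.158) and with the stroma score (unadjusted p = 0.233) as a covariate. The adjusted p-value of CTSH ranged from 0.0953, with the epithelium score as a covariate, to 0.999. The number of genes called was 0 in limma, 201 with DESeq2, 0 to 171 when 1 cow was left out (171 without P904), 17 without P617 and P1541, 182 with the epithelium score and 2611 with the stroma score as a covariate, both covariates chosen after seeing the data. The cause of these shifts was not tested. The number of members with an unadjusted p-value under 0.05, 1 over all cows, was 1 to 2 when 1 cow was left out (CTSK without P617, CTSS without P904), 3 without P617 and P1541, 0 with the macrophage score (2.86% of all genes), 2 with the epithelium score (CTSH and CTSK, 13.7% of all genes) and 2 with the stroma score (CST3 and CST6, 30.6% of all genes).

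Direction turned for CTSD (0.0726) and CST3 (0.20) with the smooth muscle score as a covariate, for CTSC (-0.21), CTSD (0.0277), CTSS (-0.17) and CTSZ (-0.0356) with the macrophage score, for CTSA (-0.00931), CTSB (-0.25), CTSC (-0.00770), CTSK (-0.18) and CTSZ (-0.0555) with the stroma score, and for CTSD (0.0653) and CST3 (0.31) without P617 and P1541. When 1 cow was left out, the log2 fold change ranged from -0.0722 to 0.0442 for CTSD, from -0.0795 to 0.0918 for CTSZ, from -0.00254 to 0.11 for CTSA and from -0.36 to 0.0885 for CST3, which was above 0 without P617. Other tests, scalings, filters and pseudocounts turned no member's direction.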

Other observations

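Plasma protein genes of the cystatin superfamily were read mainly in cow P617. AHSG, which encodes fetuin-A, had 372 normalized counts in P617 and at most 1.75 in any other cow, KNG1 had 249 and at most 13.7, and HRG, the histidine-rich glycoprotein, had 28.2 and at most 1.94. CST9L, a cystatin-like gene, had 49.4 normalized counts in P1541 and 28.2 in P617 and at most 3 reads in each of the other 9 cows. The same cows, P617 and P1541, had the highest sums of smooth muscle markers, and the part of muscle or blood in these values was not tested.

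ACP5, the tartrate-resistant phosphatase that accompanies CTSK in osteoclasts, did not follow CTSK in these cows. It had 377 normalized counts in P617, 1432 in P1541 and 2783 to 8181 in the other P cows, against 3726 to 10412 in NP cows. P617 and P1541 were thus the lowest cows for ACP5 and among the 3 highest for CTSK. These cows also had the lowest sums of epithelial markers of all cows, at 2356 and 7967 normalized counts. The part of epithelium in the ACP5 values was not tested.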
